A study of Mus musculus with 30 samples.

Results

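GABA, the main inhibitory transmitter of the brain, is made, loaded into vesicles, cleared and broken down by the products of the 7 genes described here, Gad1, Gad2, Slc32a1, Slc6a11, Slc6a12, Slc6a13 and Abat. The members were every probe set on the array whose annotation carried exactly 1 of these symbols, 14 probe sets for 7 genes out of 45037 probe sets, controls left out. The tissues, liver, kidney and brain, came from 10 male mice of genotype Avy/a at day 22. Each tissue of each mouse was read on 1 Affymetrix Mouse Genome 430 2.0 array, so 10 arrays per tissue and 30 in all. All mice carried the viable yellow allele of agouti, Avy, opposite the nonagouti allele a, and came from a colony kept by sibling mating. They differed in coat colour, with 2 mice, numbered 1 and 2, in each of 5 classes that run from yellow through slightly mottled, mottled and heavily mottled to pseudoagouti. A class and number together were treated as 1 mouse across the 3 tissues. The labels do not say what the number stands for.

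In GABA neurons the enzymes encoded by Gad1 and Gad2 form the transmitter from glutamate, and the vesicular transporter encoded by Slc32a1 loads it into synaptic vesicles. Released GABA is taken up by sodium-coupled carriers: Slc6a11 encodes the carrier of astrocytes, Slc6a13 one that is known from the meninges, liver and kidney, and Slc6a12 one that also carries betaine, an osmolyte and methyl donor. Abat encodes the mitochondrial transaminase that degrades GABA in neurons, glia and many other tissues. Slc6a12 and Slc6a13 lie next to each other on mouse chromosome 6.

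RefSeq promoter sequences (GRCm38.p6) were held for 6 of the 7 genes, and those of a pair of enzymes and a pair of carriers are shown because these pairs stand for the brain and the liver patterns described below. Each line gives the 250 bases before the most upstream annotated start, in the direction of transcription; all 4 genes are on the plus strand. Capitals mark 2 searched motifs: the core of RE1, the element of the neuronal repressor REST, written here as AGCACC, any 2 bases, then GGACAG; and TonE, the element of the osmotic regulator NFAT5. Both strands were searched.
Gad2, chr2:22622077-22622326: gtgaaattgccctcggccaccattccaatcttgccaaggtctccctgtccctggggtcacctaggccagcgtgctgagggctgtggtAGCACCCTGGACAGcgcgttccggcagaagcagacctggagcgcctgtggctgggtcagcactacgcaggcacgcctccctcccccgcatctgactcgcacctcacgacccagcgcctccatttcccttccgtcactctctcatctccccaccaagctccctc
Gad1, chr2:70561879-70562128: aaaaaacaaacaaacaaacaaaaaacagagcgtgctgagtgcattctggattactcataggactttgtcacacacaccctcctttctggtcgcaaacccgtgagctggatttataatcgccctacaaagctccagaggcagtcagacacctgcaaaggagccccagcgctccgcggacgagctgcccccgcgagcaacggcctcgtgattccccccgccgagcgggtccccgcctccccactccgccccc
Slc6a12, chr6:121342324-121342573: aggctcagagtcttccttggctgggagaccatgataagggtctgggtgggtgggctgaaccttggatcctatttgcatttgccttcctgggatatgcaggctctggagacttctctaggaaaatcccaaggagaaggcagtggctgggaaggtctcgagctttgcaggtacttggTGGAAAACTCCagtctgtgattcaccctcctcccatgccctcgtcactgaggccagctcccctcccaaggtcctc
Slc6a13, chr6:121300038-121300287: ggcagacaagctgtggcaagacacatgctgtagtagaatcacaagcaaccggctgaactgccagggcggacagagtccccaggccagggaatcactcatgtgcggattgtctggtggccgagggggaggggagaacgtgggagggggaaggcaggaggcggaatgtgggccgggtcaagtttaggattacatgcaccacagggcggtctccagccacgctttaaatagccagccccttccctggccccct
The RE1 core was found in the window of Gad2, 163 bases before the start, and in 0.0457% of 32851 windows of the same length over all genes. TonE was found 75 bases before the first start of Slc6a12, and also before the last of 3 starts of Slc6a13, on the other strand. This looser motif was in 4.31% of windows. The windows of Gad1, Slc32a1 and Slc6a11 held neither motif. CpG dinucleotides numbered 17 for Gad1, 13 for Gad2, 12 for Slc32a1 and 25 for Slc6a11, against 2 in the first window of Slc6a12 and 9 in that of Slc6a13, beside a median of 6 over all windows. A motif match is a description of the letters only.

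Values were MAS5 signals, a linear intensity per probe set with no fixed unit, and probe sets were tested on log2(signal + 16) if the highest of their 3 tissue means reached a signal of 242. Of the 14 member probe sets 9 passed, at least 1 for each gene: 2 each for Gad1 and Gad2 and 1 each for the other genes. The 5 that were not tested, 3 for Slc32a1 and 1 each for Slc6a11 and Abat, stayed at 2.1 to 150.8 on the 30 arrays. The file holds no detection calls, so such a value does not show that a transcript was absent. Signals of different probe sets were not set against each other.

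The labelled tissues carried their own markers: all 6 neuronal markers tested were higher in brain than in liver and kidney, all 6 proximal tubule markers were higher in kidney than in liver, and all 3 hepatocyte markers were lower in kidney and brain than in liver. Albumin (Alb) reached 10094 in the kidney of yellow 2, against a median of 973 over the 10 kidneys. Brain arrays differed in make-up. Markers of the cerebellum stood apart on 1 array, pseudoagouti 1, where Pcp2 was 12110 and Gabra6 was 8967, with at most 154 and 111 on the other 9. Pmch, a peptide gene of the lateral hypothalamus, was at 1288 to 5502 on 5 brain arrays (yellow 1, slightly mottled 1 and 2, heavily mottled 1 and pseudoagouti 1) and at 57.8 to 115 on the other 5. On those same 5 arrays Slc17a6 and Tcf7l2, which mark thalamic and midbrain neurons, were at 1453 to 2802 and 670 to 2422, against 414 to 900 and 306 to 615.5, while of 2 cortical markers Tbr1 was lower, at 286 to 893 against 1013 to 1577, and Neurod6 overlapped, at 681 to 2518 against 1484 to 3003. Pmch and Tcf7l2 were picked with their values already seen, and so was the split by Pmch. The highest signal on the array was 34204 to 37230 on 3 brain arrays (yellow 1, slightly mottled 1 and pseudoagouti 1) and 16761 to 24161 on the other 7. In kidney it was 36951 to 45410 for 4 mice of number 1 and 19007 to 25922 for mottled 1 and the 5 mice of number 2. In bulk tissue, fewer cells of a type and less RNA per cell cannot be told apart.

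The first question was where each gene was expressed. The genes fell into 3 patterns: Gad1, Gad2, Slc32a1 and Slc6a11 were high in brain and dim elsewhere, Slc6a12 and Slc6a13 were highest in liver, intermediate in kidney and lowest in brain, and Abat was abundant in all 3 tissues. Tissues were compared within mice with limma, and a difference was called at a Benjamini-Hochberg adjusted p under 0.05 over 22519 probe sets and a log2 difference of at least 1. Between brain and liver 6 of 9 member probe sets were called higher and 2 lower, where 30.2% and 20.4% of all probe sets tested were. Between brain and kidney the counts were again 6 and 2, beside 21.9% and 20.7%. Between kidney and liver 0 were called higher and 3 lower, beside 18.6% and 9.85%. The median log2 difference over the 9 was 4.28 for brain minus liver, 4.59 for brain minus kidney and -0.36 for kidney minus liver, beside 0.15, -0.03 and 0.13 over all probe sets tested. These counts and medians describe probe sets that passed the filter through the tissue where they were high.

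**Figure D1:**
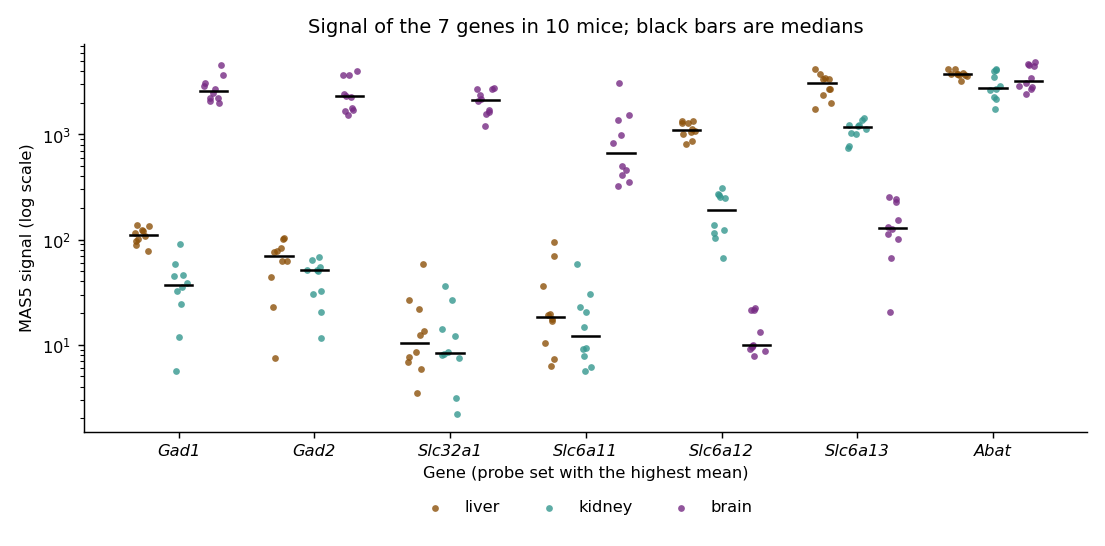
MAS5 signal (log axis) of the 7 genes in liver, kidney and brain, 1 point per mouse and a black bar at the median of 10 mice. Gad1, Gad2, Slc32a1 and Slc6a11 have every brain point above every liver and kidney point, Slc6a12 and Slc6a13 show the reverse order, and the 3 Abat groups overlap.

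Among the synthetic enzymes, Gad1 was read by 2 probe sets. On 1416561_at its brain signal was 7711 at the lowest, 9425 at the median and 11551 at the highest, with at most 47.2 in liver and 51.2 in kidney. Brain did not overlap the other tissues. The difference from liver was 8.25 ± 0.20 (log2, SE, n = 10 mice, limma adjusted p = 1.77e-22), and that from kidney 7.81 ± 0.20 (adjusted p = 1.07e-21). Since liver and kidney were near the offset of 16, the size of such a difference depends on the offset: for Gad1 against liver it was 9.50 with an offset of 1 and 6.87 with 64. On 1416562_at, the one with the higher mean of log2(signal + 16) over all 30 arrays and so the one used for Gad1 below, brain ran from 2010 over a median of 2598 to 4618, liver from 78.5 to 137 and kidney from 5.6 to 90.9. The brain excess there was 4.45 ± 0.21 over liver and 5.76 ± 0.21 over kidney. The same probe set was lower in kidney than in liver in 10 of 10 mice, with a difference of -1.32 ± 0.21 (limma adjusted p = 5.66e-06). That call, between 2 dim groups, was lost at -0.79 when 64 in place of 16 was added to the signal, and 1416561_at gave 0.44 ± 0.20 in the other direction (adjusted p = 0.0485, under the log2 limit of 1).

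Gad2 had a brain signal of 1530.5, 2302 and 4054 (lowest, median, highest) on 1429589_at, 7.5 to 103 in liver and 11.5 to 68.0 in kidney. Brain was above both in every mouse, by 5.04 ± 0.25 against liver (n = 10, limma adjusted p = 9.73e-16) and 5.40 ± 0.25 against kidney (3.38e-16). Its other probe set, 1421978_at, ran from 484 to 1035 in brain and gave smaller differences of 2.86 ± 0.16 and 3.28 ± 0.16, both called.

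The vesicular transporter gene Slc32a1 had a brain signal of 1193, 2126 and 2738, against 3.5 to 59.2 in liver and 2.2 to 36.5 in kidney. The excess was 6.09 ± 0.22 over liver and 6.23 ± 0.22 over kidney (limma adjusted p = 1.18e-18 and 1.22e-18). With offsets of 1 and 64 the excess of Slc32a1 was 7.27 and 4.72 over liver and 7.58 and 4.78 over kidney. Its 3 other probe sets were at most 56.9 in brain and did not show this pattern.

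Slc6a11, the astrocytic carrier, had the widest spread of any member in brain. Its signal was 3086 in slightly mottled 1, 1516 in yellow 1, 1367 in heavily mottled 1, 978.5 in pseudoagouti 1 and 836 in yellow 2. It was 502 in slightly mottled 2, 464 in pseudoagouti 2, 416 in heavily mottled 2, 356.5 in mottled 2 and 321 in mottled 1. Every brain array stood above every liver (6.3 to 94.8) and kidney array (5.6 to 58.6). The excess of 4.28 ± 0.33 over liver and 4.59 ± 0.33 over kidney was called (limma adjusted p = 4.50e-12 and 1.45e-12). For Slc6a11 offsets of 1 and 64 gave 5.11 and 3.20 over liver and 5.63 and 3.35 over kidney.

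Slc6a12, the betaine and GABA carrier, showed the opposite order. Its liver signal was 817, 1108 and 1358, its kidney signal 66.5, 192 and 311, and its brain signal 7.9, 9.85 and 22.2, with no overlap between any pair of tissues. The log2 differences were -5.29 ± 0.20 for brain minus liver, -2.70 ± 0.20 for brain minus kidney and -2.59 ± 0.20 for kidney minus liver (n = 10, limma adjusted p = 1.58e-18, 2.74e-12 and 1.19e-11). As Slc6a12 was at or under the offset in brain, brain minus liver was -6.38 with an offset of 1 and -3.93 with 64, and brain minus kidney -3.67 and -1.63, while kidney minus liver was -2.71 and -2.30.

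Its neighbour Slc6a13 had the same order. Liver was at 1763.5, 3056 and 4228, kidney at 739, 1168 and 1428, and brain at 20.3, 129 and 253, again without overlap. The differences were -4.37 ± 0.20 for brain minus liver, -2.99 ± 0.20 for brain minus kidney and -1.38 ± 0.20 for kidney minus liver, all called and all in 10 of 10 mice (limma adjusted p = 1.18e-16, 4.64e-13 and 1.11e-06). In the kidney of yellow 2, where albumin was high, Slc6a12 was 266 and Slc6a13 was 1205, both inside the range of the other 9 kidneys. Without that mouse all 3 differences of both carriers were still called.

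In brain, Slc6a13 was lowest in slightly mottled 2 (20.3), then mottled 1 (66.9), and highest in yellow 2 (253), pseudoagouti 1 (243) and slightly mottled 1 (228). Its brain mean was under the filter level of 242, so this order of mice rests on dim signals. The 9 tested of 10 markers of meninges and fibroblasts had their lowest summed signal, 3430, in slightly mottled 2 as well, and their highest, 8489, in slightly mottled 1. Their part in the level of Slc6a13 was not tested.

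Abat was the member that did not separate the tissues. Its liver signal was 3254, 3741 and 4168, its kidney signal 1739, 2789.5 and 4200, and its brain signal 2407, 3257 and 4931. All 3 ranges overlapped. Kidney minus liver was -0.36 ± 0.11 (lower in 7 of 10 mice, limma adjusted p = 0.00548) and brain minus kidney was 0.26 ± 0.11 (higher in 9 of 10, adjusted p = 0.0346), both under the log2 limit of 1. Brain minus liver was -0.10 ± 0.11 (adjusted p = 0.397), with a sign that turned to 0.16 (adjusted p = 0.198) under quantile normalisation over all arrays, which moved the median of all probe sets from 0.15 to -0.11.

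Other genes that feed or drain the GABA pool, 8 of 11 listed, were all tested. They include transporters of glutamine and glutamate, glutamine synthetase and the enzymes after Abat. Against liver, 2 of the 8 were higher in brain and 3 lower, with a median of 0.58, where 30.2% and 20.4% of all probe sets were. Under quantile normalisation these counts turned to 3 higher and 2 lower, with a median of 0.85. Against kidney 2 were higher and 1 lower, with a median of 0.29, beside 21.9% and 20.7% of all. Slc38a1, a glutamine carrier of neurons, was higher in brain than in kidney by 2.20 ± 0.16. Aldh5a1, whose product oxidises the semialdehyde that Abat leaves, was higher by 1.41 ± 0.11, from 571 to 1120 in kidney to 1596 to 2837 in brain. Akr7a5, whose product can reduce that semialdehyde, was lower in brain, with a difference of -1.91 ± 0.13. Slc1a1, a carrier of glutamate, was at 1869 to 2676 in brain and 3020 to 4304.5 in kidney, a difference of -0.65 ± 0.17 that was not called.

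For comparison with Slc6a12, 6 of 7 listed genes of osmolyte and betaine handling were tested. Brain was lower than kidney for 5 and higher for 0 of the 6 (median -2.14), beside 20.7% and 21.9% of all probe sets. Kidney was higher than liver for 2 and lower for 1 (median 0.56), beside 18.6% and 9.85%. Bhmt, which uses betaine to methylate homocysteine, was at 27481 to 41165 in liver and 105 to 626 in kidney, a difference of -7.15 ± 0.19. Slc5a3, the inositol carrier, was higher in kidney than liver by 4.12 ± 0.12, and Nfat5, which binds TonE, by 1.15 ± 0.14. Slc6a6, the taurine carrier, was higher by 0.95 ± 0.12, under the limit for a call. Aldh7a1, which makes betaine from its aldehyde and is named with its values already seen, had a median of 9097 over the livers, 5295 over the kidneys and 723 over the brains, the same order as Slc6a12 and Bhmt. Its kidney minus liver difference of -0.88 ± 0.09 was under the limit for a call. Chdh, the remaining tested gene of this list, is also named with its values already seen and had a different order. Its median was highest over the kidneys, at 6142, then 5241 over the livers and 128 over the brains. The kidney signals of Chdh, 5064 to 6856, lay inside its liver range of 4007 to 7553.

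The spread between mice differed among the members. In brain the log2 SD over 10 mice was 1.05 for Slc6a11, higher than that of 99.7% of the 18050 probe sets with a brain mean at or above the filter level. It was 0.51 and 0.37 for the 2 probe sets of Gad2 and 0.40 for Slc32a1. The 2 probe sets of Gad1 had 0.39 and 0.18 and Abat had 0.38, beside a median of 0.28. In liver Abat had an SD of 0.10, lower than all but 0.891% of 15711 probe sets, while in kidney it was 0.43. Slc6a13 had 0.41 in liver and 0.32 in kidney. The ratio of the mean SD over mice to the mean SD over tissues, the property the study screened for, was 1.06 for Abat, rank 1648 of 22519, and 0.09 to 0.31 for the other 8 probe sets, beside a median of 0.42. This formula for the ratio was chosen here. The moderated F-test of limma for a difference between mice, with tissue as a covariate, called 0 of 9 member probe sets, beside 6.8% of all. Abat (adjusted p = 0.0817) and Slc6a13 (0.142) had the lowest values, and these 2 of 9 had an unadjusted p under 0.05, where 25.3% of all probe sets did.

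The next question was whether the genes varied together across the brains. Gad2 and Abat fell into separate sets of arrays. Gad2 was 3644.5 to 4053.5 on the 3 brain arrays with a highest signal over 30000 and 1530.5 to 2446.5 on the other 7 by 1429589_at, whereas its other probe set, 1421978_at, overlapped, at 842 to 1035 against 484 to 848. Abat was 4521 to 4931 in yellow 1, slightly mottled 1, heavily mottled 1 and pseudoagouti 1 and 2407 to 3435 on the other 6 arrays. For these 2 genes the pooled correlation is not given.

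On the same 3 arrays the 3 tested of 4 oligodendrocyte markers summed to 42260 to 52224, against 20183 to 25520 on the other 7, the 6 neuronal markers to 72457 to 77111 against 47336 to 60805, and the 7 astrocyte markers to 39837 to 42952 against 29885.5 to 39727. The 9 tested of 12 markers of GABA neurons overlapped, at 18622 to 30279 against 13398.5 to 19417. The 30279 was that of pseudoagouti 1, the array on which the cerebellar markers stood apart. That array also had the highest brain signal on each tested probe set of Gad1, Gad2, Slc32a1 and Abat. The oligodendrocyte sum is not independent of this split: the highest signal of slightly mottled 1, 36070, was that of Mbp, a marker in that sum. On the 5 arrays with high Pmch, Abat was 3435 to 4931 and Gad2 was 2277 to 4054, against 2407 to 3078.5 and 1530.5 to 2446.5 on the other 5. Slc6a11 was 502 to 3086 against 321 to 836 there, and Slc32a1 was 2099.5 to 2738 against 1193 to 2724. Of these 4 genes, Abat alone was without overlap. The part of brain regions, of cell types or of the array in these differences was not tested.

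**Figure D2:**
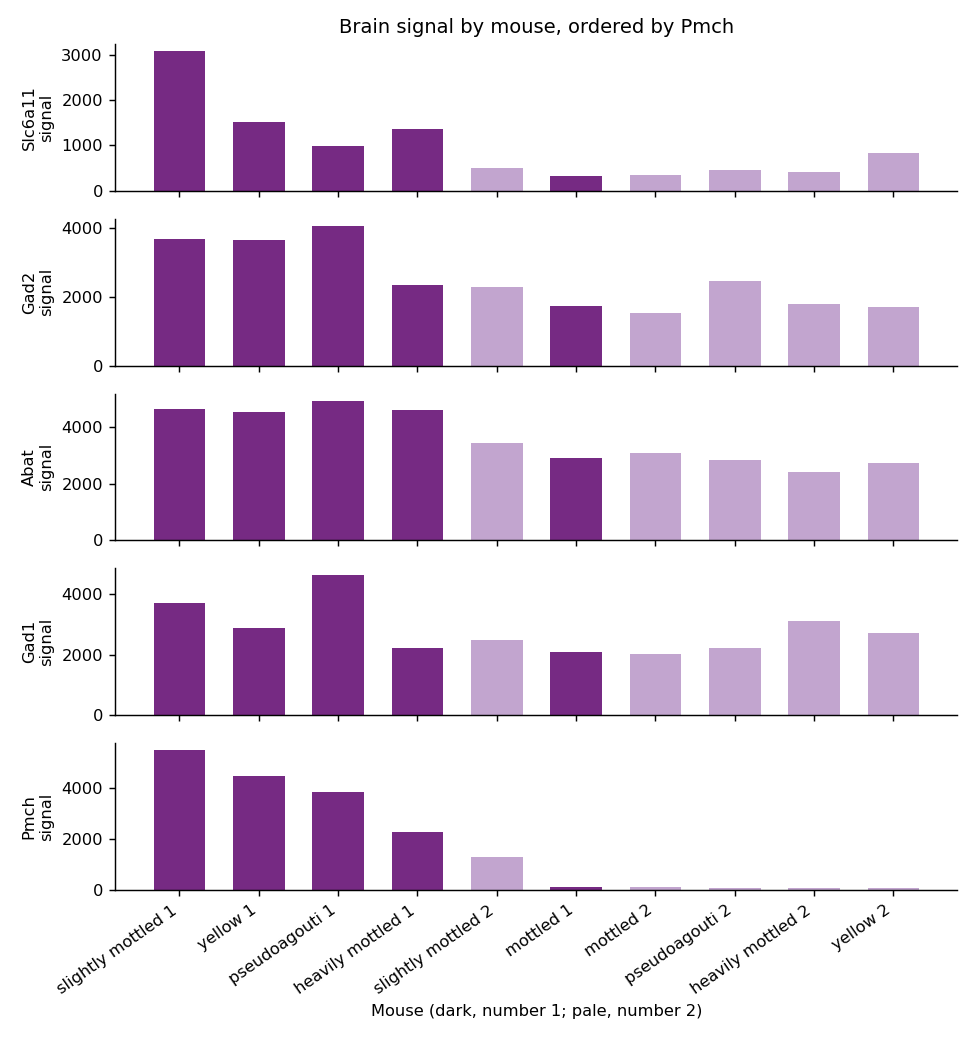
Brain signal (linear axes from 0) of Slc6a11, Gad2, Abat, Gad1 (1416562_at) and the hypothalamic gene Pmch for each mouse, ordered from high to low Pmch, with number 1 mice dark and number 2 mice pale. The 4 leftmost mice, all of number 1, have the 4 highest Abat bars and 4 of the 4 highest Slc6a11 bars, while Gad1 does not follow this order.

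Correlations of log2(signal + 16) were computed for all 21 pairs of genes, with 100000 permutations over 10 arrays and exact permutation over 7. With 10 arrays 0 of 21 pairs passed after Benjamini-Hochberg adjustment. Among pairs free of Gad2 and Abat, Gad1 with Slc6a11 had r = 0.56 (rho = 0.60, two-sided permutation p = 0.0950 and 0.0727, adjusted p = 0.285 and 0.242). It fell to 0.36 without the 2 arrays farthest from the median of Gad1. Gad1 with Slc6a13 had r = 0.52 (rho = 0.50, permutation p = 0.122 and 0.143, adjusted p = 0.319 and 0.334), and 0.20 without the 2 farthest arrays. Slc6a13 had a brain mean under the filter level and Slc6a12 was around the offset there, so pairs with either say little. In the 7 arrays with a highest signal under 30000, a set chosen after the data were seen, Gad2 with Slc32a1 had r = 0.90 (exact permutation p = 0.0107, adjusted p = 0.225). Gad1 with Gad2 had r = -0.04 (exact permutation p = 0.926). Pairs with Abat are not given here either, since heavily mottled 1, from its high set, is among the 7 arrays. Here too 0 of 21 passed. The 2 probe sets of Gad1 had r = 0.35 with each other over these 7 arrays, and those of Gad2 had 0.81.

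**Figure D3:**
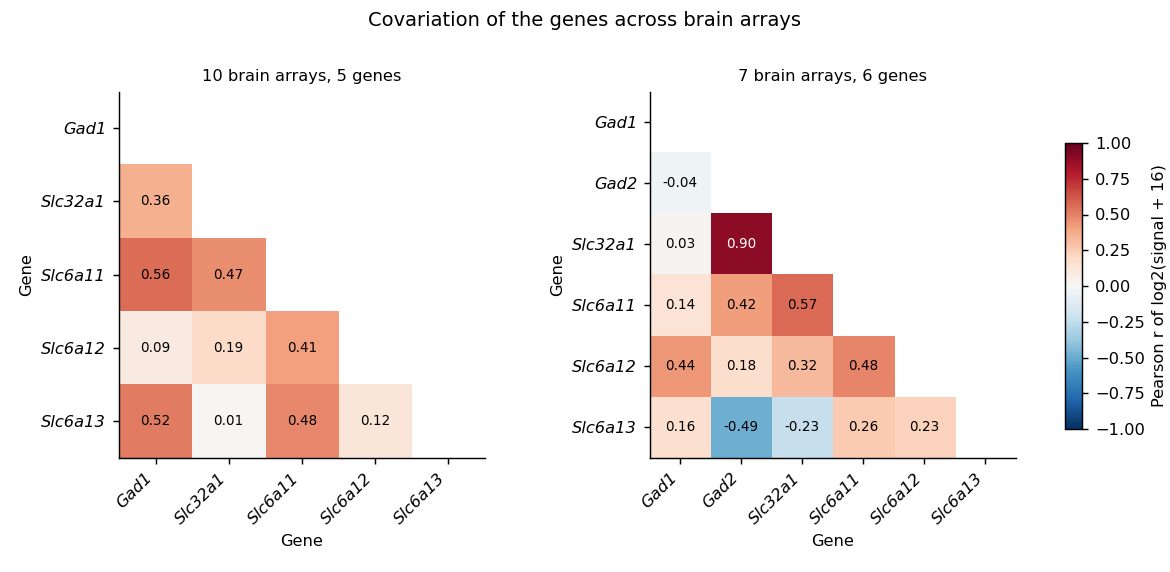
Pearson r of log2(signal + 16) between genes across brain arrays, left for 10 arrays without Gad2 and Abat, right for 6 genes without Abat in the 7 arrays with a highest signal under 30000. The darkest cell is Gad2 with Slc32a1 at 0.90, and the cells of Gad1 range from -0.04 to 0.44 in the right panel. The 0.44 is with Slc6a12, whose brain signal of 7.9 to 22.2 lay around the offset of 16.

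Among 12158 other genes, those most alike in brain over 10 arrays were named by rule, and their r in the 7 arrays is given as a description. For Gad1 they were Klhl8 (0.90), Pard6a (0.76) and Brix1 (0.85), for Gad2 Chchd7 (0.89), Pigyl (0.88) and Mrpl24 (0.80), for Slc32a1 Cgrrf1 (0.94), Etfrf1 (0.95) and Psenen (0.96), and for Slc6a11 Capza1 (0.97), Timp3 (0.96) and Slc29a1 (0.92). The 7 arrays are among the 10 used to pick the genes, and the genes compared share their arrays. For the 3 genes with their highest mean in liver, r over the 10 liver arrays was highest with Tox (0.97), D630023F18Rik (0.94) and 1700008J07Rik (0.93) for Slc6a12. It was highest with Upb1 (0.97), Cops7b (0.96) and Glmp (0.95) for Slc6a13, and with Ccnh (0.98), Hsdl2 (0.97) and Slc1a4 (0.96) for Abat. All these genes were picked as the largest of 12158 values of r on the same arrays. A high r follows from that choice and is not evidence of a link.

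Whether a mouse that was high in one tissue was high in another was examined in 21 relations, 3 pairs of tissues for each of 7 genes, and 0 passed after adjustment. All relations of Gad1, Gad2, Slc32a1, Slc6a11 and Slc6a12 involve at least 1 tissue with a mean under the filter level of 242. So do those of Slc6a13 with brain. Such relations could hardly pass, yet the adjustment runs over them too. The count of 0 therefore does not show that levels were not shared between tissues. Slc6a13 had r = 0.76 between kidney and liver (rho = 0.55, two-sided permutation p = 0.0118 and 0.107, adjusted p = 0.126 and 0.563). The relation rested on few mice: r was 0.22 without the 2 kidneys farthest from the median, and 0.90 without mottled 1 (adjusted p = 0.0379), which had the highest liver value (4228) and an intermediate kidney value (1043). In slightly mottled 2 and mottled 2 both tissues were low, at 1976 and 1763.5 in liver and 739 and 770 in kidney. The brain values of Abat and its kidney values fell into separate sets of mice, so no pooled value is given. In the 6 mice with a kidney highest signal under 30000 its r between brain and kidney was -0.20 (rho = -0.20, exact permutation p = 0.714 for both).

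Coat class was then examined as a slope per step from yellow (0) to pseudoagouti (4), the contrast that the colour classes provide. In brain Slc6a11 had 1516 and 836 in the 2 yellow mice, 3086 and 502 in the slightly mottled, 321 and 356.5 in the mottled, 1367 and 416 in the heavily mottled and 978.5 and 464 in the pseudoagouti. In 1 class, the slightly mottled, the 2 mice spanned nearly the whole range of the 10. Its slope was -0.22 ± 0.19 per step (limma, adjusted p near 1). In liver, where it was dim, the slope of Slc6a11 was 0.40 ± 0.11 (unadjusted p = 0.00360, adjusted p = 0.9998), from 7.4 and 6.3 in yellow to 70.0 and 36.4 in pseudoagouti. In kidney Gad1 (1416562_at), also dim, had 0.28 ± 0.11 (unadjusted p = 0.0287).

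The slopes of the 9 probe sets lay between -0.22 and 0.10 in brain, -0.09 and 0.40 in liver and -0.10 and 0.28 in kidney. With adjusted p under 0.05 in limma, 0 of 9 were called in liver, kidney, brain or the mean of the 3, beside 0, 0.00444, 0 and 0.00444% of all probe sets. Unadjusted p was under 0.05 for 1 of 9 in liver, 1 in kidney, 0 in brain and 0 in the mean, where 2.38, 2.06, 1.45 and 1.90% of all probe sets were. The limma F-test of a difference in slope between tissues called 0 of 9, beside 0% of all. Slc6a11 and Gad1 on 1416562_at, 2 of the 9, had an unadjusted p under 0.05 there, where 2.42% of all did.

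**Figure D4:**
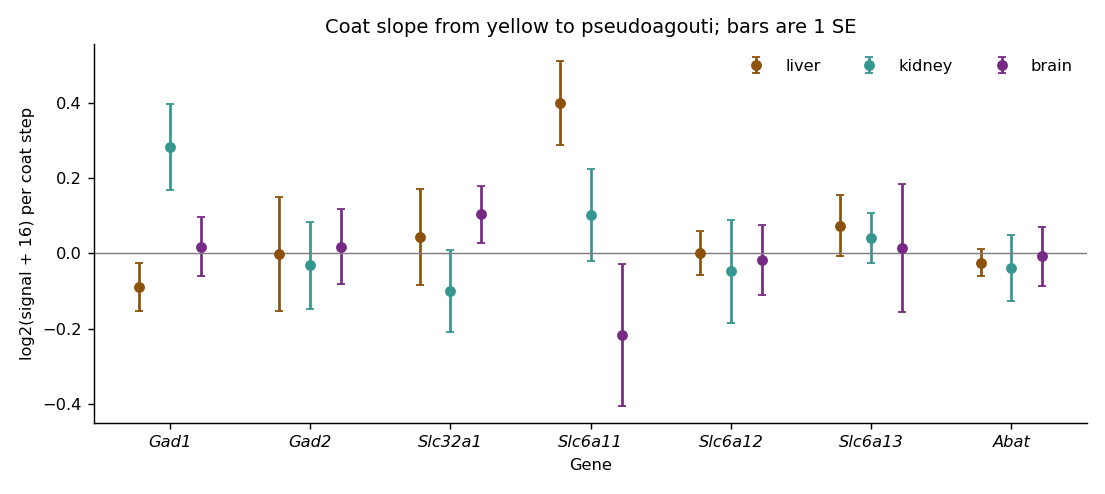
Slope of log2(signal + 16) per coat step from yellow (0) to pseudoagouti (4) for each gene in liver, kidney and brain, with bars of 1 SE. The bars of Abat, Slc6a12 and Gad2 cross 0 in all 3 tissues, and the slope farthest from 0 is that of Slc6a11 in liver at 0.40.

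The members were last compared between mice of number 2 and number 1, with class as a factor, since the number ran with the make-up of the arrays. Of the 5 brain arrays with high Pmch, 4 were of number 1 and 1 of number 2. In kidney Abat was 3986, 4141.5, 2883, 4200 and 3519 in the number 1 mice, from yellow to pseudoagouti, and 2260, 2178, 2672, 2696 and 1739 in the number 2 mice. The sets did not overlap, and number 2 was lower in 5 of 5 classes. The difference was -0.70 ± 0.14 (n = 5 against 5, limma adjusted p = 0.0250). It was the 1 of 9 member probe sets called in kidney, beside 9.93% of all.

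The kidney values of Abat also split by the highest signal of the array. The 4 kidneys with a highest signal over 30000 had 3519 to 4200 and the other 6 had 1739 to 2883. With the highest signal as a covariate the difference was -0.35 ± 0.19 (limma adjusted p = 0.678). With it 0 of 22519 probe sets were called in kidney, where 1713 had an unadjusted p under 0.05. As the 4 kidneys over 30000 were all of number 1, this covariate nearly repeats the number, and the 2 cannot be told apart here. The call was lost without any single mouse other than mottled 1 or mottled 2: without yellow, slightly mottled, heavily mottled or pseudoagouti 1 or 2, Abat kept -0.62 to -0.71 at limma adjusted p of 0.0681 to 0.0948. Over all probe sets, calls fell from 2236 to between 0 and 54 in those fits, and rose to 4966 and 4971 without mottled 1 and mottled 2. With class as a factor, each omission also takes the other mouse of its class out of the contrast. The 6 proximal tubule markers summed to 78683 to 103050 in the 4 kidneys and 50023 to 61468 in the 6, and the 5 markers of loop and collecting duct to 56328 to 66458 against 36094 to 47885. Their part was not tested.

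In brain the difference was -0.56 ± 0.16 for Abat, -0.61 ± 0.15 for Gad2 and -1.20 ± 0.31 for Slc6a11 (limma adjusted p = 0.127, 0.0998 and 0.108), and 0 of 9 were called beside 0% of all. These 3 of 9 had an unadjusted p under 0.05, where 19.2% of all did. The other tested probe set of Gad2, 1421978_at, overlapped, at 484 to 1035 in number 1 and 503 to 848 in number 2. Without mottled 1, or without mottled 2, Abat (-0.72) and Slc6a11 (-1.54) were called, at limma adjusted p of 0.0491 or 0.0494 and of 0.0456 or 0.0463. In those fits 292 or 285 of all 22519 probe sets were called. With class as a factor, either omission takes both mottled mice out of the contrast, so the 2 fits are not separate evidence. In liver Abat differed by 0.03 ± 0.10, and 0 of 9 were called beside 8.6% of all. The one member with an unadjusted p under 0.05 there was Slc6a13 (-0.54 ± 0.16, limma adjusted p = 0.07). The difference between tissues in this contrast called Abat alone of the 9 (limma F-test of the interaction, adjusted p = 0.0210), beside 4.94% of all.

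**Figure D5:**
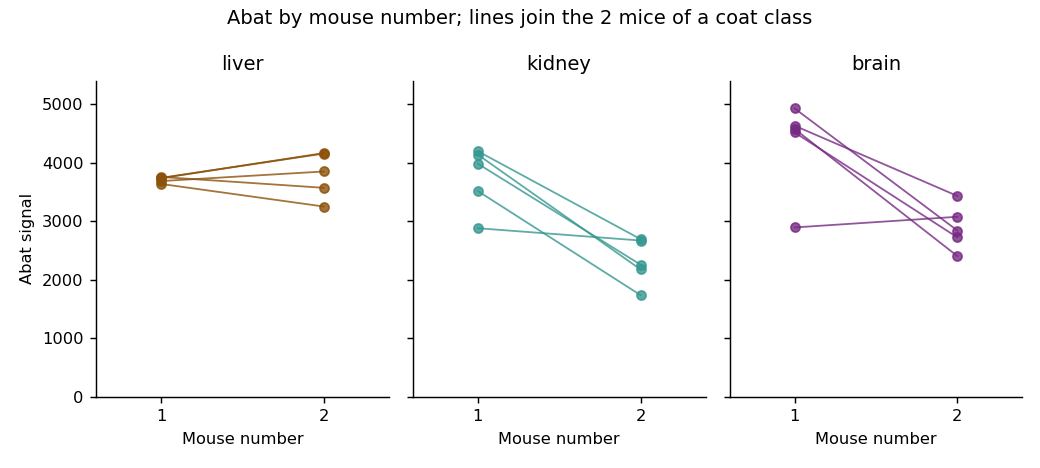
Abat signal (linear axis from 0) in liver, kidney and brain by mouse number, with a line joining the 2 mice of each coat class. In kidney all 5 lines fall from number 1 to number 2, in brain 4 of 5 fall, and in liver the lines stay between 3254 and 4168 without a common direction.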

How the data were processed

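Each of the 30 arrays measured total RNA of 1 tissue of 1 mouse. The deposited file gives each probe set a linear intensity, computed by the authors with MAS5 per the submitters' processing notes; its version and a genome build are not given in the sources used here. The trimmed mean, 2% off each end, was 500.0 on every array, so arrays had been scaled to 1 target. Of 45101 probe sets 64 controls were left out, and the platform annotation gave 34945 exactly 1 symbol, 932 several and 9160 none. Values were used as log2(signal + 16). The 22519 probe sets with a highest tissue mean of at least 242 were tested with limma 3.58.1 in R 4.3.3 (eBayes with trend, Benjamini-Hochberg): tissues with mouse as a fixed block, mice by a moderated F-test, coat as a slope, and number with class as a factor. The p-values of the coat slope and number fits measure the spread between these mice. Those of the tissue and mouse tests, and of differences between tissues, measure the spread left once mouse and tissue are fitted. Correlations used permutations in Python 3.11.15. The number of arrays limits the precision. The fits were tested on simulated data. Offsets of 1 and 64, filters, quantile normalisation, blocks and each mouse left out were tried. The highest signal as a covariate and the set of 7 brain arrays were alternatives chosen after seeing the data. The representative probe set of a gene had the highest mean of log2(signal + 16) over all arrays, and the 3 most correlated genes were named by rule, as were up to 4 genes per list. Members and lists were chosen with earlier results of these data known. Differences of number 2 minus 1 were compared between classes across probe sets. The correlation was above 0.1 for 10 of 10 pairs of classes in liver, 9 of 10 in kidney and 6 of 10 in brain. Its median was 0.23 in liver, 0.30 in kidney and 0.18 in brain. By the criterion that every pair exceed 0.1, the numbers pair the arrays in liver alone. Kidney missed this criterion yet had the highest median, so the criterion does not show that the number mattered less there.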

Additional observations from a re-analysis of the deposited data

Results flagged for a closer look

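The difference between number 2 and number 1 mice in Abat was not the same in the 3 tissues, in limma's F-test of the interaction (adjusted p = 0.021). Number 2 minus number 1 was -0.70 in kidney, -0.56 in brain and 0.03 in liver (log2), and the kidney values did not overlap. The adjusted p ran from 0.0065 to 0.0662 when each mouse was left out in turn. It was above 0.05 without yellow 1, slightly mottled 1, heavily mottled 1, yellow 2 or slightly mottled 2. Of 21 sets of 10 arrays, 7 genes in 3 tissues, 0 had a highest or lowest array far enough from the rest to pass Dixon's criterion, where chance would flag about 1 in 20.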

How the results depend on the processing

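The counts of member probe sets called between tissues kept within 1.5 times of 8, 8 and 3 under every alternative run, and so did the absence of calls for the mouse effect and the coat slope. A single Gad1 call, kidney minus liver on 1416562_at, was lost with an offset of 64 (-0.79). Abat brain minus liver changed sign under quantile normalisation (0.16). For the number contrast, the highest signal as a covariate left 0 calls in kidney in place of 1, and there Abat had -0.35. In kidney this covariate nearly repeats the number. With each mouse left out in turn, calls ran from 0 to 1 in kidney, 0 to 2 in brain and 0 to 1 for the difference between tissues, and relations between tissues that passed ran from 0 to 1. Over all probe sets the number calls ran from 0 to 4971 in kidney, 0 to 292 in brain and 325 to 1292 for that difference. The replicate block, which takes the number out of the mouse effect, the coat slope and both sets of correlations, gave 0 calls in each, and changed no other call. Among the pathway genes, 1 of the 2 lower in kidney than in liver was left under quantile normalisation and also without pseudoagouti 1, slightly mottled 2, mottled 2 or heavily mottled 2. Quantile normalisation turned their 2 higher and 3 lower in brain than in liver to 3 and 2, and left 1 of the 2 osmolyte genes higher in kidney than in liver. The causes were not tested. Signals near background in liver and kidney limit what can be said of Gad1, Gad2, Slc32a1 and Slc6a11 there. The same holds for Slc6a12 in brain, and dim signals limit what can be said of Slc6a13 there.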
